A study of Mus musculus with 28 samples.

Results

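The 10 fatty acid desaturases and elongases described here, chosen by name, were measured in the liver, pancreas and lung of mice that overexpress human APOBEC3B (A3B): the desaturases Scd1, Scd2, Fads1, Fads2 and Fads3 and the elongases Elovl1, Elovl2, Elovl3, Elovl5 and Elovl6. These 10 genes were taken by their symbols from the 35928 gene symbols of a first table of liver and pancreas and the 24845 gene rows of a second table of liver and lung. The A3B mice carried TetO-A3B-tGFP, human A3B fused to turboGFP in the ColA1 locus under a doxycycline-inducible operator, together with the CAGs-rtTA3 driver, which is constitutive and not limited to one cell type. They were about 4 weeks old when the doxycycline diet began. Set 2 held livers of 6 A3B mice and 2 controls and pancreases of 6 A3B mice and 2 controls, all labelled with 10 days on doxycycline, and 7 mice gave both tissues. Set 1 held livers of 3 A3B mice, labelled with 14 days (mice 23 and 28) or 10 days (mouse 70), and of 3 controls, and lungs of 3 A3B mice (10 days) and of 3 controls, with 15 days on the labels of all these controls.

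By the study's methods, controls were littermates with the A3B transgene alone or the driver alone that were fed doxycycline, but the sources differ on single animals. The labels give both transgenes for control liver 11, the driver alone for control lung 87 and the A3B transgene alone for the other controls of set 1. The study's list of animals has 4 of the 5 control mice of set 1, 11, 88, 91 and 92, as not given the diet, against their labels, and gives mouse 87 another time on it than its label. A figure legend describes the controls of set 2 as without doxycycline, against their labels and the list of animals. The genotype labels of A3B pancreases 44 and 137 give the A3B transgene alone and those of control pancreases 45 and 168 give both transgenes, while the livers of these 4 mice are labelled the other way, so that for these pancreases the group rests on the sample title. Diet, driver and genotype therefore cannot be fully told apart in these comparisons. Sex was not labelled, and expression of Y-linked genes was found in 3 of 6 A3B livers and 1 of 2 control livers of set 2 and in 1 of 3 control livers and 0 of 3 A3B livers of set 1. It was also found in 3 of 6 A3B and 1 of 2 control pancreases, and in 0 of 3 A3B and 0 of 3 control lungs.

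Desaturases are membrane enzymes of the endoplasmic reticulum that put double bonds into fatty acyl chains with electrons passed on by cytochrome b5. Elongases of the Elovl family carry out the condensation step that lengthens acyl-CoA chains, after which a reductase, a dehydratase and a second reductase finish the cycle. In the liver, Scd1, Elovl6 and the enzymes of fatty acid synthesis are known targets of the factors SREBP-1c, ChREBP and LXR, and Fads2, Elovl5, Fads1 and Elovl2 act in turn to make long polyunsaturated fatty acids. Scd1 and Scd2 lie in the same region, at chr19:44394455-44407879 and chr19:44293674-44306864 (GRCm38), and Fads3, Fads2 and Fads1 form a cluster between chr19:10041569-10060110 and chr19:10182888-10196877.

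For 6 of the 10 members a RefSeq promoter window of 300 bases on GRCm38.p6 was at hand, and for Scd1, Scd2, Fads1 and Elovl3 none was used. The windows below are shown because Fads2, Elovl2, Elovl5 and Elovl6 were lower together in A3B livers, and that of Fads3, whose groups overlapped there, is given for contrast. Each is read 5′ to 3′ on the strand of the gene, and capitals mark every match on either strand to CCAAT (the NF-Y box), GGGCGG (a GC box) or CACGTG (an E box), while the sterol regulatory element, a site bound by SREBP, was searched as well. Fads2, minus strand, is chr19:10101454-10101753; Elovl2, minus strand, is the upstream of its 2 windows, chr13:41220354-41220653; Elovl5, plus strand, is chr9:77917115-77917414; Elovl6, plus strand, is chr3:129532136-129532435; Fads3, plus strand, is chr19:10041298-10041597.
Fads2: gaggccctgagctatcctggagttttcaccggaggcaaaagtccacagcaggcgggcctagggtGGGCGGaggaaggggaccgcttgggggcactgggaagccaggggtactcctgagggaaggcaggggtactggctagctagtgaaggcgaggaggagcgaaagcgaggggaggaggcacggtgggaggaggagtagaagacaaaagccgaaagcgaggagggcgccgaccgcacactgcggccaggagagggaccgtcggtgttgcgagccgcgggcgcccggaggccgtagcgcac
Elovl2: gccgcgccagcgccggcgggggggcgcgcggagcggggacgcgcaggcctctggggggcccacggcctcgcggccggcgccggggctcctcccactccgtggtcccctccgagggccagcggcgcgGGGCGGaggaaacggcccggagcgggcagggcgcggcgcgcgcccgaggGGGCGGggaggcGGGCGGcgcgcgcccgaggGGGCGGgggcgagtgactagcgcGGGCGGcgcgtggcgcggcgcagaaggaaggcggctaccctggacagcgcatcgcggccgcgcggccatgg
Elovl5: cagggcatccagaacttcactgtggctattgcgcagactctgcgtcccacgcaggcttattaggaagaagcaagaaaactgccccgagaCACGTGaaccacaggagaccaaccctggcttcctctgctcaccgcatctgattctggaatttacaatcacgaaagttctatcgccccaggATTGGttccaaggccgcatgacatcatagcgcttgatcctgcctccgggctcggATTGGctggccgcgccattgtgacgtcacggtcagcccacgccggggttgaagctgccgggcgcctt
Elovl6: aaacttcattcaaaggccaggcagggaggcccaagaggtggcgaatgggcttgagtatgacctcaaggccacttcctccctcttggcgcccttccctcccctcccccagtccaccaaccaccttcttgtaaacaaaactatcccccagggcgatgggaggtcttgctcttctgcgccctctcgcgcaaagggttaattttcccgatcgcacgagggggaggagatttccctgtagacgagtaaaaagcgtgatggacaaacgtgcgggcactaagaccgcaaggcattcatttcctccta
Fads3: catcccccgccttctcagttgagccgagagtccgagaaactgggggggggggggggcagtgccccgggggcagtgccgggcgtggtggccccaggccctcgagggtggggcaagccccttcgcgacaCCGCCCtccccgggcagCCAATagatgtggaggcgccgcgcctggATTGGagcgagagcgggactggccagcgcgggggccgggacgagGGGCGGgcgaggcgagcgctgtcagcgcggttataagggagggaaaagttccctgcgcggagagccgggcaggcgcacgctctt

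The Elovl5 window held 2 CCAAT boxes and 1 E box, the Fads2 window 1 GC box and the Elovl2 window 5 GC boxes. The Elovl6 window held no match to these letters, nor did the other Elovl2 window, chr13:41220113-41220412, and the Fads3 window held 2 CCAAT boxes and 2 GC boxes. Of the 2 Elovl1 windows, not printed, chr4:118427843-118428142 held 1 CCAAT box and 5 GC boxes and chr4:118429451-118429750 held 2 GC boxes. No window of a member held the letters searched for the sterol regulatory element, which were present in 0.234% of all 32851 promoter windows of this length. CCAAT was present in 37.4%, GGGCGG in 35.7% and CACGTG in 7.15% of them. These matches describe the letters of the windows and no more. In none of the windows printed do the marked motifs overlap each other.

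Set 2 was quantified as kallisto estimated counts with TPM (a level corrected for transcript length and sequencing depth), and the counts of a sample summed to between 65161064 and 118976013. Set 1 was deposited as TPM, so its depth is unknown. The 2 sets were quantified differently and put the members in different orders: the ratio of Fads2 to Fads1 in TPM was 1.497 and 1.54 in the control livers of set 2 and 0.187 to 0.235 in those of set 1, so levels are compared only within a set. The summed TPM of 6 hepatocyte markers (Alb, Apoa1, Ttr, Ahsg, Tat and Cps1) was 38856 to 84960 in A3B livers and 88328 to 145352 in controls of set 2, and 3847 to 7292 against 6265 to 9444 in set 1. All 6 were expressed in every liver. None passed by edgeR in set 2, where 2 were lower (Alb -1.71, Ttr -1.49) and 1 higher (Tat 1.99) at an unadjusted p under 0.05 and DESeq2 called 2 lower and 1 higher, and none passed by limma in set 1, where 1 was lower at an unadjusted p under 0.05. The part of hepatocyte content in the liver results was not tested. Acinar markers summed to 26996 to 54265 TPM in A3B pancreases and to 158017 and 171465 TPM in the controls, and on the TMM scale used for the tests all 6 were lower by edgeR (median log2 difference -3.62). A3B liver 48 stood apart in other cell types, with macrophage markers at 22.2 TPM against 128 to 457 TPM in the other A3B livers of set 2. In these bulk samples fewer cells of a type and less RNA per cell cannot be told apart. The samples of a group carry different mouse numbers.

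In A3B livers of set 2, 6 of the 10 members were lower than in controls and none was higher. Scd1 showed the lowest A3B values relative to its controls, Fads1, Fads2 and Elovl6 were about an order of magnitude lower, and Elovl2 and Elovl5 fell less. Scd2 and Fads3 showed no difference that passed the test, and Elovl1 and Elovl3 did not pass it either. The test was edgeR's quasi-likelihood test on estimated counts with TMM scaling, which puts samples on a common scale by assuming that most genes do not differ, with Benjamini-Hochberg adjustment over 17376 genes and a threshold of 0.05. Of all genes tested, 2.41% were lower and 1.25% were higher. At an unadjusted p under 0.05, 7 members were lower and 0 higher, against 9.88% and 13.1% of all genes. DESeq2 gave 7 lower and 0 higher after adjustment, against 6.32% and 7.49% of all genes. The median log2 difference of the members was -2.90, and that of all genes tested was 0.21. Scaling by total counts moved the latter to 0.67, and the same 6 members passed. Beside them 6.44% of all genes then passed in either direction, against 3.66% with TMM.

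Scd1, which introduces the first double bond into saturated acyl chains and is the main hepatic isoform, stood at 3160 and 1155 TPM in control livers 45 and 168. In the A3B livers it stood at 1.21 (mouse 137), 1.73 (153), 6.62 (48), 11.5 (125), 25.1 (44) and 26.6 TPM (49). Every A3B liver lay far below both controls, and the A3B livers also spread widely among themselves. A3B liver 49, with the highest Scd1 and Scd2 of its group, had adipocyte markers summing to 89.7 TPM, against 7.76 to 27.3 TPM in the other A3B livers and 13.1 and 5.83 TPM in the controls, and their part was not tested. The log2 difference of Scd1 was -7.92 ± 1.04 (SE), which is 243-fold lower (edgeR, adjusted p = 0.00713). By level, Scd1 was the 42nd and the 103rd gene of control livers 45 and 168 and between the 3563rd and the 11544th gene of the A3B livers. It made up 64.6% and 53.8% of the summed TPM of the 10 members in the controls and between 0.500% and 6.68% in A3B livers. These TPM include Scd1-202, a transcript of 329 bases, with 25.4% and 7.06% of Scd1 TPM in controls 45 and 168. Its share was 0 to 35.3% in A3B livers. On the TMM scale Scd1 was at 8793 and 5068 CPM (counts scaled to a common library size) in controls 45 and 168 and at 2.52 to 66.6 CPM in A3B livers. Scd2, the isoform best known from brain and skin, was near 1 TPM in liver, at 1.61 and 1.18 in controls and at 0.150 to 5.06 in the A3B mice (median 1.57). Its log2 difference was 0.05 ± 0.84 (SE), the groups overlapped, and its sign turned with the setting.

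Fads1, the desaturase of the last step toward arachidonic acid, was at 414 and 173 TPM in controls 45 and 168 and at 24.8 to 48.1 TPM in the A3B mice (median 33.5). The groups did not overlap, and the log2 difference was -3.59 ± 0.32 (SE, adjusted p = 0.00297), 12.1-fold lower and the third smallest p of all genes tested. Fads2, the desaturase of the first step in the same pathway, was at 636 and 259 TPM in controls and at 39.8 to 103 TPM in the A3B mice (median 67.6). It was 8.69-fold lower, with a log2 difference of -3.12 ± 0.37 (SE, adjusted p = 0.00504). The ratio of Fads2 to Fads1 was 1.37 to 3.14 in A3B livers, against 1.497 and 1.54 in controls. Fads3, the third gene of the cluster, lay at 12.3 and 5.51 TPM in controls and at 6.50 to 19.7 TPM in A3B livers, with overlapping groups and a log2 difference of 0.03 ± 0.41 (SE).

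Among the elongases of polyunsaturated chains, Elovl2 was at 285 and 143 TPM in controls and at 23.9 to 76.6 TPM in the A3B mice (median 38.4). Its log2 difference was -2.69 ± 0.38 (SE, adjusted p = 0.00871). Elovl5 was at 298 and 168 TPM in controls and at 44.5 to 99.98 TPM in the A3B mice (median 69.2), and its log2 difference was -2.11 ± 0.37 (SE, adjusted p = 0.0193). Neither gene's groups overlapped. Elovl6, which lengthens saturated and monounsaturated chains from fatty acid synthesis, was at 33.4 and 7.41 TPM in controls and at 1.001 to 4.42 TPM in the A3B mice (median 2.35). Both controls lay above every A3B liver, although they also lay far from each other, and the log2 difference was -3.51 ± 0.54 (SE, adjusted p = 0.0131). Without control liver 45, when 0.400% of all genes passed, Elovl2 (-2.35, adjusted p = 0.0821), Elovl5 (-1.96, adjusted p = 0.151) and Elovl6 (-2.29, adjusted p = 0.175) no longer passed. Elovl5 was also lost without control liver 168 (adjusted p = 0.0874) and without A3B liver 137 (adjusted p = 0.0549). Without A3B liver 48 the same 6 members passed, beside 6.52% of all genes in either direction, against 3.66% with every liver. Scd1, Fads1 and Fads2 passed in all 13 alternatives run for this comparison.

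Elovl1, an elongase of very long saturated and monounsaturated chains that is expressed in most tissues, was 1.74-fold lower (log2 difference -0.80 ± 0.26, SE), which did not pass (adjusted p = 0.110). On the TMM scale its A3B livers, at 19.6 to 32.1 CPM (counts scaled to a common library size), lay below both controls at 46.5 and 44.7, while in TPM the groups overlapped. It passed by DESeq2 (adjusted p = 0.0285) and without A3B liver 49 (adjusted p = 0.0495). That liver had Cdc20, a cell cycle gene that overlaps an exon of Elovl1 on the opposite strand, at 13.4 TPM, against 0.113 to 0.576 TPM in the other A3B livers and 1.70 and 1.08 TPM in controls 45 and 168, and its part was not tested. On the same TMM scale 7 members (the 6 called and Elovl1) had every A3B liver below both controls, which was so for 12.9% of all genes tested.

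**Figure D1:**
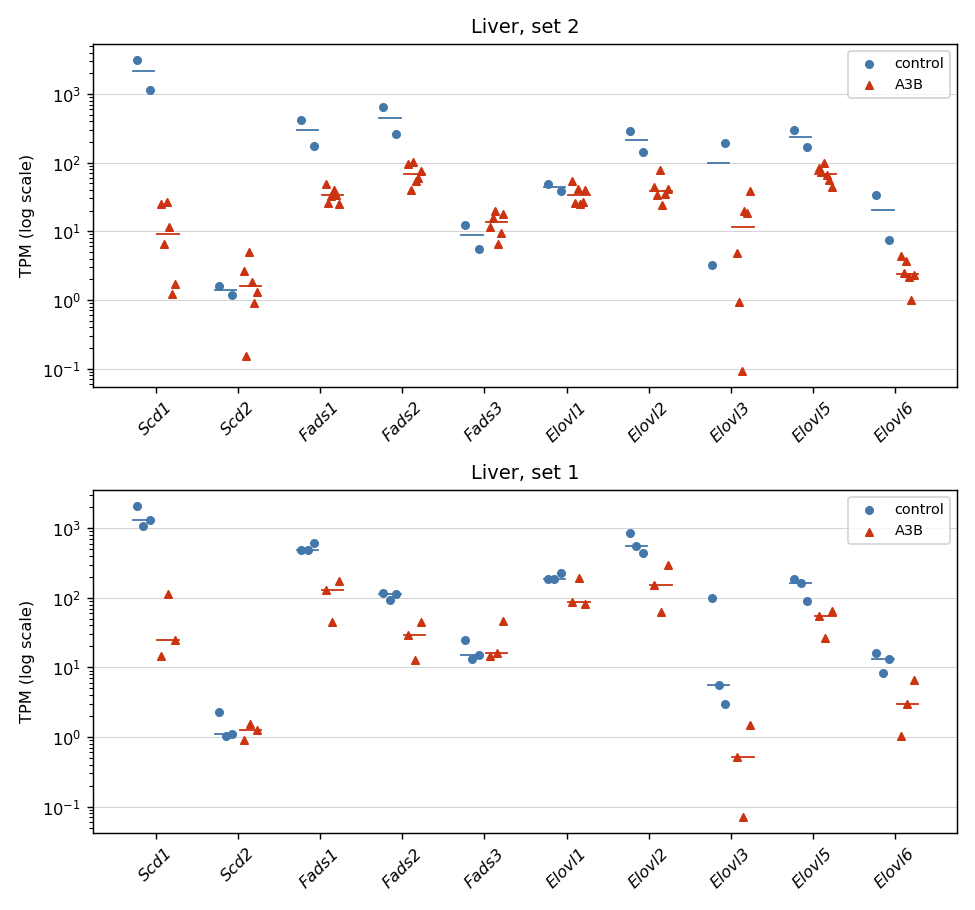
TPM of the 10 members in single livers on a log scale, with controls as circles, A3B livers as triangles and a line at the median of each group. In set 2 the Scd1 values run from 1.21 to 26.6 in A3B livers against 1155 and 3160 in controls, while the groups of Scd2, Fads3, Elovl1 and Elovl3 overlap in TPM.

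Elovl3, an elongase known in mouse liver for higher expression in males, did not pass in set 2 (log2 difference -3.37 ± 1.60, SE, adjusted p = 0.2503). Its levels went with the expression of Y chromosome genes. Among livers of set 2 with such expression, control 168 had 194 TPM and A3B livers 137, 125 and 153 had 18.5, 19.6 and 37.9 TPM. Among those without it, control 45 had 3.26 TPM and A3B livers 44, 48 and 49 had 4.75, 0.926 and 0.0913 TPM. In set 1, control 11, the only liver with Y expression, had 101 TPM, controls 91 and 92 had 5.52 and 2.93 TPM, and A3B livers 28, 23 and 70 had 0.0698, 0.509 and 1.49 TPM. Within the livers with Y expression of set 2 and among those without it in set 1, each A3B liver lay below each control, and in set 2 those without it overlapped. Without control liver 168 the log2 difference of set 2 turned to 1.76. Elovl3 overlaps Pitx3 on the opposite strand, which was at 3.54 and 4.97 TPM in controls 168 and 11, at 0.800 to 2.08 TPM in the A3B livers with Y expression and at most 0.412 TPM in the other livers, and its part was not tested. In the 9 livers without Y expression of both sets, chosen after seeing the data, the mean difference of log2(TPM + 1) of Elovl3 was -1.28, against -2.52 over all livers.

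**Figure D2:**
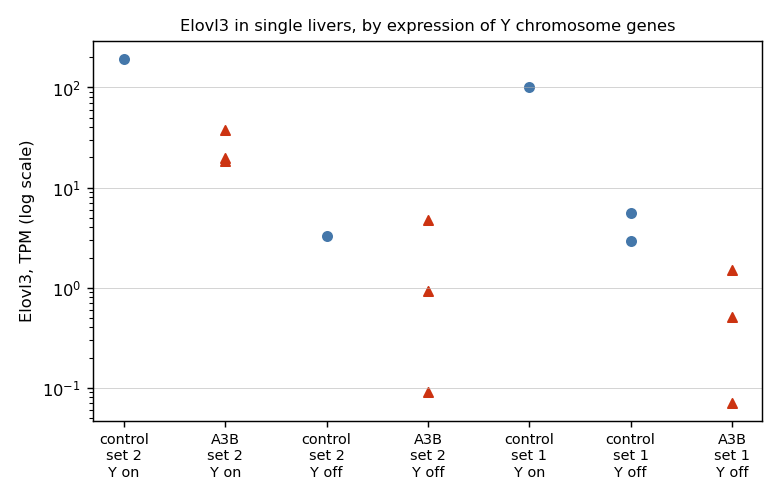
Elovl3 TPM on a log scale in single livers, split by set and by whether Y chromosome genes were expressed (summed TPM of Ddx3y, Eif2s3y, Kdm5d and Uty of at least 10). The controls with Y expression stand at 194 and 101 TPM, and livers without it stand at 0.0698 to 5.52 TPM.

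The livers of set 1 addressed the same question in other mice. There 3 of the 10 members were lower and none was higher by limma on log2(TPM + 1), with 1.86% of 11507 genes lower and 6.07% higher after adjustment. At an unadjusted p under 0.05, 7 members were lower and 0 higher, against 8.12% and 24.5% of all genes. Scd1 was at 2097, 1072 and 1312 TPM in controls 11, 91 and 92 and at 14.5, 112 and 24.9 TPM in A3B livers 23, 28 and 70, and the groups did not overlap. Its log2 difference was -5.33 ± 0.71 (SE, adjusted p = 0.0162). Fads1 was at 491, 492.8 and 606 TPM in controls and at 130, 44.8 and 171 TPM in A3B livers (-2.39 ± 0.50, SE, adjusted p = 0.0395). Fads2 was at 116, 92.3 and 114 TPM in controls and at 29.3, 12.6 and 44.7 TPM in A3B livers (-2.02 ± 0.46, SE, adjusted p = 0.0443). A3B liver 28 held the highest Scd1 and the lowest Fads1, Fads2, Elovl2 and Elovl5 of the A3B livers, with adipocyte markers summing to 216 TPM against 30.6 and 39.7 TPM in livers 70 and 23. The part of those markers in its values was not tested.

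In the same livers Elovl2 was at 438 to 864 TPM in controls and 62.5 to 293 TPM in A3B mice (-2.06 ± 0.58, SE, adjusted p = 0.0638). Elovl5 was at 90.8 to 186 against 26.7 to 65.2 TPM (-1.58 ± 0.45, SE, adjusted p = 0.0656), and Elovl6 was at 8.43 to 16.02 against 1.05 to 6.56 TPM (-1.74 ± 0.51, SE, adjusted p = 0.0695). None of these elongases passed, although the groups did not overlap. Exons of Elovl6 overlap Gm35986 on the opposite strand, which was at 0.201 to 0.859 TPM in these A3B livers and 6.13 to 7.01 TPM in controls, and its part was not tested. With Scd1, Fads1, Fads2 and Elovl3 they make 7 members with every A3B liver below every control, against 10.3% of all genes tested. Elovl1, Scd2 and Fads3 overlapped between the groups, with log2 differences of -0.84 ± 0.40, -0.13 ± 0.32 and 0.38 ± 0.49 (SE). The median over the members was -1.88 and over all genes 0.39. The calls rested on single livers and on the filter. Without the filter on low values 0 members passed (Scd1 adjusted p = 0.0620), and of all 19179 genes then tested 0.282% did. In turn, 0 members passed without A3B liver 23, without control 91 or without control 92, where 0.476%, 0.00862% and 0.0775% of all genes passed, against 7.93% with every liver. Scd1 alone passed without control 11, whose label carries both transgenes, where 13.6% of all genes did. Without those livers the Scd1 difference stayed between -5.54 and -4.73 with adjusted p up to 0.0882. Without A3B liver 70, 5 members passed, with Elovl2 (-2.59, adjusted p = 0.0323) and Elovl6 (-2.21, adjusted p = 0.0332) added, beside 11.6% of all genes. Without A3B liver 28 Elovl1 was added (-1.24, adjusted p = 0.0445), beside 7.73% of all genes.

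Across the livers of both sets together, 9 A3B and 5 control, labels were exchanged only within a set in a two-sided exact permutation test of all 560 arrangements, with each set weighted equally. Of the members, 6 were lower and none was higher, namely Scd1, Fads1, Fads2, Elovl2, Elovl5 and Elovl6, each with p = 0.00179 by the exact permutation test, the smallest that this design can give, and adjusted p = 0.0115 over 10150 genes. Their mean differences of log2(TPM + 1) were -6.56, -2.68, -2.29, -2.19, -1.64 and -2.01, and 9 of 9 A3B livers lay below every control of their set. Of all genes, 7.37% were lower and 28.4% higher in this test, with a median of 0.38. At an unadjusted p under 0.05 the counts of members were again 6 and 0, against 10.3% lower and 36.4% higher among all genes. The 6 genes passed whichever of the 14 livers was left out, and Elovl3 was added without control liver 45 (-3.90, adjusted p = 0.0385). With the 9 livers without Y expression alone, 40 arrangements remain, the smallest p is 0.025 and no gene of the table passed, while the 6 members had differences of -1.59 to -6.27 with adjusted p = 0.128. Elovl1 (-0.59, adjusted p = 0.123), Elovl3 (-2.52, adjusted p = 0.136), Fads3 (0.46, adjusted p = 0.329) and Scd2 (0.00, adjusted p = 1) did not pass. In the same test 2 of the 6 hepatocyte markers were lower, Ttr (-1.17, adjusted p = 0.0115) and Alb (-0.90, adjusted p = 0.0172), and 1 was higher, Tat (1.71, adjusted p = 0.0466), and their part was not tested.

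**Figure D3:**
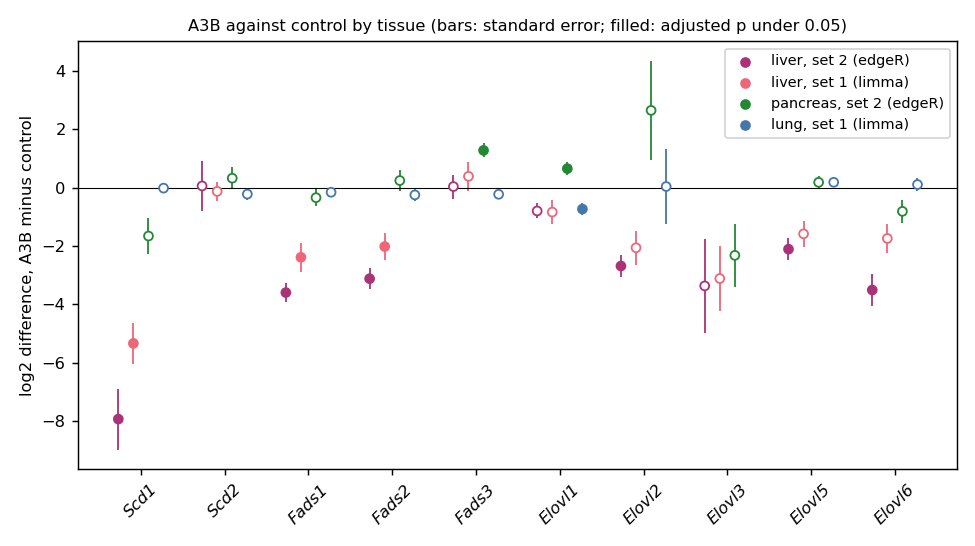
Log2 difference between A3B and control for each member in 4 comparisons, with the standard error as bars and filled points where the adjusted p was under 0.05. Scd1 stands at -7.92 and -5.33 in the livers, at -1.66 in the pancreas and at -0.02 in the lung, where Elovl3 was not tested.

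Other genes of the pathway were taken from lists written for this purpose, and their counts in set 2 stand beside the shares of all genes given above, which were 2.41% lower by edgeR, 9.88% lower at an unadjusted p under 0.05 and 6.32% lower by DESeq2. In the livers of set 2, 4 of 8 genes of fatty acid synthesis were lower and 0 higher: Fasn, the fatty acid synthase (-3.34 ± 0.60, SE), Acss2, which makes acetyl-CoA from acetate (-2.08 ± 0.49), the mitochondrial citrate carrier Slc25a1 (-1.75 ± 0.26) and malic enzyme Me1 (-1.54 ± 0.35). Of these 8 genes 7 were lower at an unadjusted p under 0.05 and 7 by DESeq2. Of 13 genes of transcriptional control 4 were lower and 0 higher: Srebf1 (-3.65 ± 0.38) and Srebf2 (-1.52 ± 0.23), which encode the SREBP factors, Insig1, which retains them in the endoplasmic reticulum (-2.14 ± 0.39), and Mlxipl, which encodes ChREBP (-2.11 ± 0.48). Here 6 were lower and 1 higher at an unadjusted p under 0.05, and 5 were lower by DESeq2. Of 6 electron donors 2 were lower, Cyb5b (-2.27 ± 0.27), the mitochondrial outer membrane form of cytochrome b5, and Cyb5r3, its reductase (-1.76 ± 0.33), with 3 lower at an unadjusted p under 0.05 and 2 by DESeq2. Of 6 genes of acyl-CoA activation and phospholipid remodelling tested, 1 was lower, the acyl-CoA synthetase Acsl5 (-1.53 ± 0.33, SE, adjusted p = 0.0377), with 3 lower at an unadjusted p under 0.05 and 2 by DESeq2.

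Of 6 partners of the elongation cycle tested, 0 passed by edgeR. At an unadjusted p under 0.05 these were 1 lower, Hsd17b12, the ketoacyl-CoA reductase (-1.11 ± 0.27, SE, adjusted p = 0.0539), and 1 higher, the dehydratase Hacd2 (0.84 ± 0.32, adjusted p = 0.157). DESeq2 called 1 of them lower. Of 6 other family members tested, which include Scd3 and Elovl7, 0 passed by edgeR or DESeq2 and 0 had an unadjusted p under 0.05. In set 1, fatty acid synthesis had 2 of 8 lower, Slc25a1 (-1.44 ± 0.26) and Fasn (-2.48 ± 0.53), and transcriptional control 2 of 13, Srebf1 (-2.20 ± 0.38) and Insig1 (-2.36 ± 0.48), beside 1.86% lower among all genes. Cyb5b (-1.97 ± 0.31) was the only 1 of 5 electron donors and the acyl-CoA synthetase Acsl3 (-1.67 ± 0.37) the only 1 of 6 genes of the acyl-CoA list to pass there, both lower. In the synthesis list 4 genes were lower at an unadjusted p under 0.05, and in that of transcriptional control 3 were lower and 1 was higher, against 8.12% and 24.5% of all genes. The medians in set 2 were -1.71 for synthesis, -0.76 for transcriptional control and -0.25 for the elongation partners, beside 0.21 over all genes.

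The gene patterns most like that of Scd1 were sought over the 8 livers of set 2 by Pearson correlation of log2 CPM among 12256 genes. The first 5 were Pxdc1 (0.98), Tmem135 (0.97), Elovl5 (0.97), Cpq (0.96) and Srebf1 (0.96), and Fads1, Elovl6, Fads2 and Elovl2 came 18th, 19th, 33rd and 71st. Elovl1 came 240th (0.85), Scd2 3967th (0.26), Elovl3 5045th (0.11) and Fads3 5840th (-0.001). These livers form 2 groups, so the correlation holds the difference between the groups. Over the 6 A3B livers alone it was 0.80 for Elovl5, 0.82 for Elovl6, 0.61 for Fads1, 0.44 for Fads2, 0.28 for Elovl2 and -0.76 for Elovl3. These values are given as a description and the points share their libraries' depth and scaling.

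In the pancreas of set 2, Fads3 and Elovl1 were higher in A3B mice and no member was lower. Of 19142 genes tested by edgeR, 17% were higher and 14.9% lower, so that 2 of 10 members higher is near the share among all genes. At an unadjusted p under 0.05 the members were 2 higher and 1 lower, against 23.6% and 19.8% of all genes. DESeq2 gave 2 higher and 1 lower, Scd1 (-1.72, adjusted p = 0.0198), against 19.3% and 17.2% of all genes. Direction in this tissue depended on the scaling. In the control pancreases 62.2% and 59.5% of all counts fell on the 10 top genes, against 12.04% to 20.4% in A3B pancreases. With counts scaled by their totals the median of all genes moved from 0.09 to 2.29, 7 members passed beside 71.5% of all genes, all 7 higher, and Scd1, Fads1, Elovl3 and Elovl6 changed sign. Values are therefore given here in CPM on the TMM scale, and differences are relative to that scale.

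Fads3 was at 18.5 and 21.1 CPM in control pancreases 45 and 168 and at 36.8 to 60.2 in A3B pancreases, with a median of 47.4. The groups did not overlap, the log2 difference was 1.27 ± 0.24 (SE, adjusted p = 0.00339), and it passed in all 13 alternatives. This gene value includes Fads3-203, annotated as a retained intron and not as coding. Fads3-203 held 42.6% and 40.9% of Fads3 TPM in control pancreases 45 and 168 and 38.0% to 47.6% in A3B pancreases. In the livers of set 2 it held 44.7% to 67.8%. Elovl1 was at 19.8 and 15.6 in controls and at 22.5 to 33.4 in A3B pancreases (0.65 ± 0.21, SE, adjusted p = 0.0395). Its groups did not overlap, and it no longer passed without any one of 7 of the 8 pancreases, A3B 125 being the exception, with adjusted p between 0.0540 and 0.204. Cdc20, on the strand opposite to Elovl1, was at 3.995 to 9.74 CPM in A3B pancreases and 10.9 and 3.25 CPM in controls 45 and 168 (-0.22 ± 0.47, SE, adjusted p = 0.746), and whether the counting used strand is not given in the sources used here. The part of Cdc20 reads in the Elovl1 values was not tested. Markers of some other cell types were higher as well, and those of others were not. On the TMM scale 3 of 4 fibroblast markers were higher by edgeR (median 1.90), 3 of 5 macrophage markers (median 2.60) and 3 of 4 ductal markers (median 1.72), none was lower, and DESeq2 and an unadjusted p under 0.05 gave the same counts. By edgeR 1 of 3 endothelial markers was higher (median 0.47) and 1 of 4 endocrine markers was lower (median -1.39). All 4 lymphocyte markers had a negative difference (median -1.34) and 0 passed. Fibroblast markers summed to 1792 to 2922 CPM in A3B pancreases against 479.6 and 764.2 CPM in controls, macrophage markers to 224.5 to 460.4 against 32.0 and 84.8 CPM, and ductal markers to 222.1 to 665.2 against 87.9 and 144.8 CPM. Their part in the Fads3 and Elovl1 values was not tested.

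Scd1 in the pancreas was at 122 and 524 CPM in controls 45 and 168 and at 51.3 to 230 in A3B pancreases, with a median of 71.3, and the groups overlapped (-1.66 ± 0.63, SE, adjusted p = 0.0723). Scd1 passed as lower without control 45 (-2.34, adjusted p = 0.0389) and without A3B pancreas 44 (-2.08, adjusted p = 0.0203), and the difference was -0.24 without control 168. The markers of adipocytes, in which Scd1 is abundant, summed on the same scale to 193 and 1038 CPM in controls 45 and 168. They summed to 490.7 CPM in A3B pancreas 53, to 185.9 CPM in 49 and to between 71.0 and 94.6 CPM in the other 4. A3B pancreas 44, with the highest Scd1 of the A3B pancreases (230 CPM), had 74.1 CPM of these markers. All 6 markers had a negative log2 difference, with a median of -2.67, and 0 passed by edgeR or DESeq2 while 1 was lower at an unadjusted p under 0.05. Their part in the Scd1 values was not tested. A3B pancreases 44, 53 and 49, without Y expression, had Scd1 at 72.4 to 230 CPM, and 125, 137 and 153, with it, at 51.3 to 70.2 CPM. The controls ran the other way, with 45 (without it) at 122 and 168 (with it) at 524 CPM.

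The other members gave no call in the pancreas. Scd2 (0.32 ± 0.39, SE), Fads1 (-0.35 ± 0.29), Fads2 (0.24 ± 0.36), Elovl5 (0.18 ± 0.23) and Elovl6 (-0.82 ± 0.40) overlapped between the groups. Elovl6 passed as lower without control 45 (-1.36, adjusted p = 0.0349) and was at 0.16 without control 168. Elovl2 was at 0.548 and 0.0237 CPM in controls 45 and 168 and at 0.227 to 6.16 in A3B pancreases (2.64 ± 1.70), and its highest values, in A3B pancreases 44 and 49, came with Alb at 808.7 and 424.7 CPM, against 11.8 to 157.5 CPM in the other 4 and 285.9 and 4.53 CPM in the controls. Elovl3 was at 0.767 CPM in control 45, was listed at 0 in control 168 and was at 0.0504 to 0.113 CPM in A3B pancreases, and its difference of -2.32 ± 1.09 (SE) turned from -3.40 (adjusted p = 0.00857) without control 168 to 5.97 without control 45. Outside the 10, the family members Scd3 (3.87 ± 0.61, adjusted p = 0.00130) and Elovl7 (1.60 ± 0.27, adjusted p = 0.00186) were higher and Degs1, a sphingolipid desaturase, was lower (-1.39 ± 0.23, adjusted p = 0.00174), relative to the TMM scale. Scd3 was at 3.43 to 8.77 CPM in A3B pancreases and at 0.164 and 0.664 CPM in controls 45 and 168, with the caution that Scd paralogs share sequence and kallisto divides shared reads between them. Counts of the pathway lists, on the same scale, stand beside 17% higher and 14.9% lower among all genes. Here fatty acid synthesis had 1 of 8 higher (Me1, 1.79 ± 0.35) and 1 lower (Thrsp, -2.16 ± 0.36), and transcriptional control 1 of 13 higher (Rxra, 1.57 ± 0.34) and 2 lower (Insig1, -1.53 ± 0.26, and Mlxipl, -1.64 ± 0.50). Elongation partners had 1 of 6 higher (Hacd3, 1.06 ± 0.22) and 1 lower (Hacd1, -1.43 ± 0.28), and electron donors 1 of 6 lower (Cyb5b, -0.89 ± 0.25). The acyl-CoA list had 3 of 7 higher (Lpcat3, Acsl4 and Mboat7, 1.51, 1.82 and 1.002) and 1 lower (Acsl6, -2.12).

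**Figure D4:**
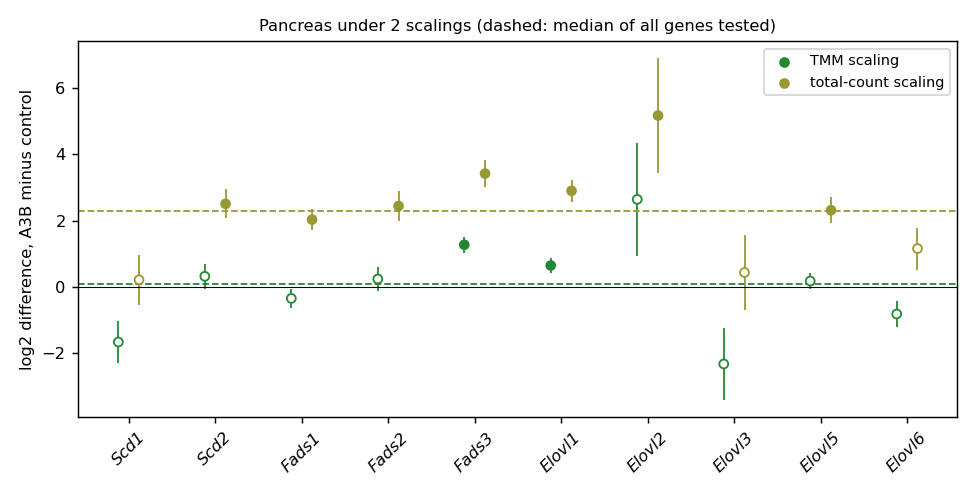
Log2 difference between A3B and control pancreas for each member under TMM and under total-count scaling, with standard errors, filled points for adjusted p under 0.05 and dashed lines at the median of all genes tested (0.09 and 2.29). Fads3 lies above the median line under both scalings, and Scd1 lies below it under both.

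In the lung of set 1, Elovl1 was lower and no other of the 9 members tested passed. Of 13651 genes tested by limma, 20.8% were lower and 16.1% were higher, so that 1 lower member of 9 is not above the share among all genes. At an unadjusted p under 0.05, 1 member was lower and 0 were higher, against 27.8% and 21% of all genes. Elovl1 was at 552, 941 and 823 TPM in control lungs 87, 88 and 91 and at 466.1, 464 and 427 TPM in A3B lungs 69, 70 and 74. Every A3B lung lay below every control (-0.74 ± 0.20, SE, adjusted p = 0.0275), with the driver-only control 87 nearest to them. Without the filter on low values the adjusted p was 0.0510, while 25.1% of 19913 genes passed. The call was lost without A3B lung 69, 70 or 74 or control lung 88 or 91, with adjusted p between 0.0591 and 0.0879. Cdc20 was at 1.54 to 1.75 TPM in A3B lungs and 2.17 to 3.99 TPM in controls, and its part was not tested.

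Lung held Scd1 at levels of the same order as control liver, and here the groups overlapped. Scd1 was at 880, 902 and 724 TPM in controls 87, 88 and 91 and at 832, 965 and 687 TPM in A3B lungs, with a log2 difference of -0.02 ± 0.16 (SE, adjusted p = 0.932). Scd2 was at 107 to 178 against 118 to 129 TPM (-0.22 ± 0.19), Fads1 at 119 to 148 against 115 to 121 TPM (-0.16 ± 0.10), and Fads3 at 80.0 to 113 against 80.6 to 82.6 TPM (-0.23 ± 0.13). Fads2 was at 11.4 to 19.4 against 10.5 to 13.7 TPM (-0.25 ± 0.20), and Elovl5 was at 71.7 to 88.6 against 87.8 to 98.2 TPM (0.18 ± 0.11). Without control lung 91, Scd2 passed as lower (-0.44, adjusted p = 0.0340). Elovl6 was near 1 TPM, and A3B lung 70, with the highest value at 2.98 TPM, also held the most adipocyte marker RNA (676 TPM against 82.3 to 245 TPM in the others). Elovl2 ran from 0.432 to 21.0 TPM without regard to group, and lungs 88, 70 and 74, with the highest values, had Alb at 245, 190 and 216 TPM against 0.331 to 23.6 TPM in the other 3. Elovl3 was below the filter of a mean of 1 TPM, at no more than 0.765 TPM. Of 5 electron donors tested in the lung 4 were lower, Cyb5r1 (-0.77 ± 0.12), Cyb5a (-0.38 ± 0.10), Cyb5b (-0.30 ± 0.09) and Cyb5r4 (-0.48 ± 0.15), beside 20.8% of all genes, with the same count at an unadjusted p under 0.05. Elongation partners had 2 of 6 lower (Tecr, -0.38 ± 0.11, and Hacd1, -0.34 ± 0.10), transcriptional control 1 of 13 (Nr1h3, -0.41 ± 0.11), the acyl-CoA list 1 of 6 (Acsl5, -0.58 ± 0.10), other family members 1 of 5 (Elovl4, -0.71 ± 0.18), and no gene of these lists passed as higher. Fatty acid synthesis had 0 of 8 past limma's test and 1 higher at an unadjusted p under 0.05.

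**Figure D5:**
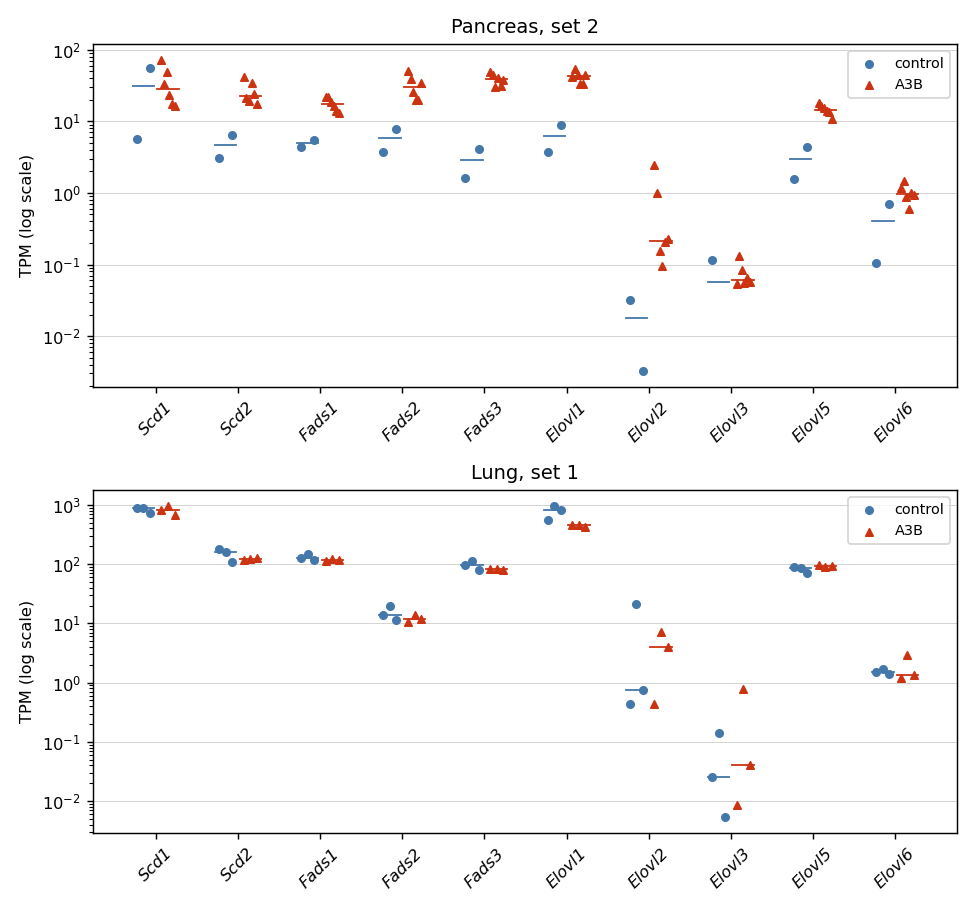
TPM of the members in single pancreases (set 2) and lungs (set 1) on log scales, with a line at the group median; the 0 of Elovl3 in control pancreas 168 cannot be drawn on this axis. TPM has no TMM scaling, so the pancreas panel shows most members higher in A3B mice, and the lung values of Scd1 overlap between 687 and 965.

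The A3B effect was compared between tissues with an interaction term. In set 2, the effect in the pancreas minus that in the liver passed for 7 of the 10 members, all positive, against 6.87% of 19927 genes. They were Scd1 (6.45 ± 1.58, SE, adjusted p = 0.0180), Fads2 (3.54 ± 0.60, adjusted p = 0.00343), Fads1 (3.43 ± 0.50, adjusted p = 0.00144), Elovl6 (2.85 ± 0.79, adjusted p = 0.0299), Elovl5 (2.46 ± 0.48, adjusted p = 0.00724), Elovl1 (1.62 ± 0.33, adjusted p = 0.00807) and Elovl2 (5.67 ± 1.74, adjusted p = 0.0461). Elovl2 was barely detected in control pancreases 45 and 168, with 10 and 1 estimated counts. Its difference within the pancreas was 2.64 ± 1.70 (SE) and did not pass. Since the 2 tissues came from the same animals, the fit with the mouse as a replicate block over 7 mice bears on the calls of these 7 members. In it Elovl2 (5.15, adjusted p = 0.0603) and Elovl6 (2.97, adjusted p = 0.0756) no longer passed, which left 5 members, beside 7.96% of all genes in either direction. That fit lacks A3B liver 48 and A3B pancreas 53. Over the same 7 mice without the block, an alternative chosen after seeing the data, the same 7 members passed, beside 11.7%. There Elovl2 was at 5.86 (adjusted p = 0.0468) and Elovl6 at 3.03 (adjusted p = 0.0314). Without control 45, which leaves 1 control per tissue, 1 member, Fads1, passed beside 0.397% of all genes, and Scd1 was at 5.31 (adjusted p = 0.224). Without control 168, 4 members passed beside 2.51% of all genes, and Scd1 was at 8.25 (adjusted p = 0.0706). The lone control is assumed to vary like the other groups. The pancreas side of the tissue difference also depends on the scaling described above. With total-count scaling 8 members passed, beside 40.5% of all genes in either direction, against 11.9% in the main fit. By limma on log2(TPM + 1) 9 members passed, beside 57.7%, and by DESeq2 6 passed, beside 18.9%.

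In set 1 the effect in the lung minus that in the liver passed for Scd1 (5.31 ± 0.82, SE, adjusted p = 0.00515), Fads1 (2.22 ± 0.55, adjusted p = 0.0301) and Elovl5 (1.76 ± 0.48, adjusted p = 0.0412), against 1.94% of 13477 genes that were positive. Fads2 (1.77 ± 0.53, adjusted p = 0.0578), Elovl6 (1.84 ± 0.59, adjusted p = 0.0698), Elovl3 (3.33 ± 1.32, adjusted p = 0.123) and Elovl2 (2.10 ± 1.42, adjusted p = 0.338) were positive without passing. Elovl1 gave 0.10 ± 0.45, Scd2 -0.09 ± 0.35 and Fads3 -0.61 ± 0.55 (adjusted p = 0.465), and in set 2 Fads3 gave 1.40 ± 0.48 (adjusted p = 0.0673), Elovl3 1.46 ± 2.56 and Scd2 0.44 ± 0.99 without passing. Lungs and livers of mice 70 and 91 share an animal. With the mouse as a replicate block by duplicateCorrelation, 5 members passed, with Fads2 (1.63, adjusted p = 0.0282) and Elovl6 (1.62, adjusted p = 0.0359) added, while the share of all genes that passed in either direction went from 10.7% to 19.3%. Scd1 passed in all 17 alternatives. Without A3B liver 70, 5 members passed beside 22.7% of all genes. Without A3B lung 69, 70 or 74, control liver 91, or control lung 87, 88 or 91, Scd1 was the only member that passed, beside 4.35% to 6.09% of all genes.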

How the data were processed

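RNA-seq of 28 samples was used. For set 2 the authors quantified transcripts against mm10 with kallisto, and the deposited files give estimated counts and TPM per transcript. For set 1 the authors deposited TPM per gene from deduplicated alignments, as the column names say. Here, transcripts were summed per gene symbol, and transcripts with no matched gene, 0.225% to 1.46% of the counts of a sample, were left out. Estimated counts were rounded and tested with edgeR 4.0.16 (filterByExpr, TMM, robust quasi-likelihood test), and log2(TPM + 1) with limma 3.58.1 (trend, robust, genes averaging 1 TPM or more) in R 4.3.3. Interaction terms compared tissues, and an exact permutation test within sets joined the livers. P-values were adjusted by Benjamini-Hochberg over all genes tested. Alternatives were DESeq2 1.42.0, other scalings, filters and pseudocounts, Y expression as a covariate, replicate blocks and leaving out each sample. Scripts were tested on simulated data.

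The members and lists were chosen with earlier results of these data known. Groups were taken from sample titles. All members are named, with up to 4 genes of smallest p from each other list described and the 5 genes most like Scd1, and 1 list is not reported here. The pairing of liver and pancreas comes from the mouse numbers in the titles (7 mice). Deviations from the group means correlated at 0.0887 to 0.327 for A3B mice and -0.0277 for the controls. Liver and lung of set 1 share mice 70 and 91. Depth of set 2 ran from 65161064 to 118976013 counts and that of set 1 is unknown.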

Additional observations from a re-analysis of the deposited data

Results flagged for a closer look

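The A3B effect differed between tissues by the interaction test for 7 members in set 2, beside 6.87% of all genes that were positive. The effect in the pancreas minus that in the liver was 6.45 for Scd1, 3.43 for Fads1, 3.54 for Fads2, 1.62 for Elovl1, 5.67 for Elovl2, 2.46 for Elovl5 and 2.85 for Elovl6 on the log2 scale. With the mouse as a replicate block, over the 7 mice with both tissues, Elovl2 (adjusted p = 0.0603) and Elovl6 (adjusted p = 0.0756) no longer passed, while over those mice without the block both did (adjusted p = 0.0468 and 0.0314). Elovl2 had 10 and 1 estimated counts in control pancreases 45 and 168, and its difference within the pancreas did not pass. In set 1 the effect in the lung minus that in the liver was 5.31 for Scd1, 2.22 for Fads1 and 1.76 for Elovl5, beside 1.94% of all genes. Of the 19 combinations of member and group examined for a sample far from the others, 0 had one by the rule used, and the other combinations were not examined. Single values did stand apart. Elovl2 was at 6.16 CPM in A3B pancreas 44 against at most 1.84 CPM in the other A3B pancreases. Elovl3 was at 101 TPM in control liver 11 against 5.52 and 2.93 TPM in controls 91 and 92.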

How the results depend on the processing

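In the pancreas the count of members called was 2, beside 31.9% of all genes, and it was 6 with limma on log2(TPM + 1), beside 85%, and 7 with total-count scaling, beside 71.5%. Without a filter on low values 0 members passed in the livers of set 1, where 0.282% of all genes did, and 0 in the lung, where 25.1% did. In the livers of both sets 0 passed among livers without Y expression, where 40 arrangements limit the test. With a replicate block the tissue difference passed for 5 members in set 2 and for 5 in set 1, beside 7.96% and 19.3% of all genes, against 11.9% and 10.7% without it. In set 2 it passed for 8 members with total-count scaling, beside 40.5%, for 9 with limma, beside 57.7%, and for 6 by DESeq2, beside 18.9%. Leaving out 1 sample gave 3 to 7 members in the livers and 1 to 3 in the pancreas of set 2, 0 to 5 in the livers and 0 to 1 in the lung of set 1, 6 to 7 in both liver sets, and 1 to 7 and 1 to 5 for the tissue differences of set 2 and set 1. The shares of all genes that passed were 0.394% to 9.34%, 19% to 30.8%, 0.00862% to 13.6%, 21.9% to 33.7%, 17.1% to 41.5%, 0.397% to 15.1% and 4.21% to 22.7% in the same order.

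Signs turned as follows, and the cause was not tested. In set 2 livers Scd2 was at -0.0212 and Fads3 at -0.034 by DESeq2, and Scd2 was at -0.00712 with the Y covariate. In the pancreas Scd1 and Fads1 were at 0.71 and 1.64 with limma, and Scd1, Fads1, Elovl3 and Elovl6 at 0.21, 2.03, 0.44 and 1.16 with total-count scaling. With quantile normalization Fads3 in set 1 livers was at -0.00651, Scd1 in the lung at 0.024 and the lung minus liver difference of Scd2 at 0.17. Over both liver sets Scd2 was at 0.13 without Y expression and 0.0367 with the sets pooled.

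With 1 sample left out, set 2 livers gave -0.57 to 0.22 for Scd2, -0.47 to 0.55 for Fads3 and -4.43 to 1.76 for Elovl3. The pancreas gave -0.0050 to 0.35 for Fads2, -1.36 to 0.16 for Elovl6, -0.76 to 0.28 for Fads1 and -3.40 to 5.97 for Elovl3. Set 1 livers gave -0.13 to 0.67 for Fads3 and -0.25 to 0.0922 for Scd2, and the lung gave -0.67 to 1.30 for Elovl2, -0.17 to 0.26 for Elovl6 and -0.14 to 0.11 for Scd1. The tissue difference ran from -5.04 to 10.2 for Elovl3 in set 2, and from -0.12 to 0.50 for Elovl1 and -0.32 to 0.0554 for Scd2 in set 1. Over both liver sets Scd2 ran from -0.12 to 0.12. Of the values of single members under an alternative, 800 kept their direction and side of the threshold, 74 lost the threshold, 30 gained it and 52 changed sign. With 2 controls per tissue in set 2 and unknown depth in set 1, the control spread limits each comparison.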

Other observations

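Fads1 has 2 protein-coding transcripts of similar length in the files of set 2. Fads1-201 held 96.2% and 95.5% of Fads1 TPM in control livers 45 and 168. In A3B liver 48, Fads1-202 was at 19.8 TPM (78.1% of Fads1) and Fads1-201 at 4.61 TPM, while Fads1-202 was at most 1.29 TPM in the other A3B livers. In the pancreas Fads1-202 held 56.1% and 36.7% of Fads1 TPM in controls 45 and 168 and 37.3% in A3B pancreas 153, against 1.65% or less in the other 5 A3B pancreases. These are kallisto estimates of transcripts that share sequence, and the difference between the samples was not tested. A3B liver 48 also stood apart from the other A3B livers of set 2 in the summed markers of endothelial cells (4.74 against 28.1 to 48.9 TPM), macrophages (22.2 against 128 to 457 TPM) and fibroblasts (18.2 against 95.7 to 193 TPM), and Elovl1-207 held 0.74% of its Elovl1 TPM against 35.1% to 46.1%.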
